A study of Mus musculus with 82 samples.

Results

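The genes described here are the nuclear genes of oxidative phosphorylation, followed in the RNA of aortic vascular smooth muscle cells (aVSMC). They were chosen by name and position. Protein-coding genes whose symbol begins with Nduf, Uqcr or Atp5, or with Cox4 to Cox8, were taken along with Sdha, Sdhb, Sdhc and Cyc1, provided that they lie outside chromosomes 9, X, Y and MT. Of 88 such genes 86 had a count, out of 34819 genes with a count and 55401 genes listed. No measured level entered this choice beyond the need for a count. The 86 genes comprise 28 accessory subunits, 7 core subunits and 7 assembly factors of complex I, 3 subunits of complex II, 8 of complex III, 17 of complex IV and 16 of complex V, and they lie on 17 chromosomes. Cox4i1 and Atp5o.1 are listed at 0 and drop out, as do 8 further genes of these families on chromosomes 9 and X. 16 pseudogenes of these families are counted separately, and because reads that align to several places were counted, members with such a copy share reads with it. Ndufb1.ps and Cox5b.ps bear pseudogene symbols but are listed as protein-coding. They are therefore among the 86, under the accessory subunits of complex I and under complex IV. The exons of 28 members overlap those of another counted gene, for 25 of them on the opposite strand only.

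Oxidative phosphorylation takes place in the inner mitochondrial membrane. Complexes I and II pass electrons from NADH and succinate to ubiquinone, complex III hands them on to cytochrome c, and complex IV reduces oxygen with them, while complexes I, III and IV pump protons. Complex V, the ATP synthase, lets the protons flow back and makes ATP. Most subunits are encoded in the nucleus and imported, some core subunits of complexes I, III, IV and V are encoded by mitochondrial DNA, and several complex IV subunits exist as isoforms that are known from particular tissues such as heart, skeletal muscle, lung or testis. Contractile smooth muscle of large arteries is known for relying to a large extent on aerobic glycolysis beside respiration.

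Primary cultures of smooth muscle from the aortas of C57BL/6 mice were kept for 24 h without serum and then incubated with EGF (10 µg/L), AngII (10 nM), U46619 (1 µM) or combinations of them, and control cultures had none of them. EGF activates the EGF receptor, AngII the AT1 receptor, and U46619, a stable analog of thromboxane, the TP receptor. After 24 h, 7 groups (control, U46619, EGF+U46619, EGF, AngII, EGF+AngII+U46619 and EGF+AngII) were sequenced with n = 6 cultures each, 1 from each of 6 mice, which gave 42 libraries. After 48 h, 40 libraries came from 10 culture sets in 2 batches of 5 sets, 1 with control, EGF, U46619 and EGF+U46619 and the other with control, EGF, AngII and EGF+AngII. Control and EGF thus had n = 10 culture sets after 48 h and the other groups n = 5. The labels give 5 mouse numbers for these 10 sets. The same number covers sets 1 and 4 of the batch with U46619 and sets 1, 2 and 5 of the batch with AngII. The n after 48 h therefore counts culture sets and, by the labels, not separate mice. All groups share the genetic background and the serum-free period, no group carries a modified allele, and the cells are cultured cells outside the vessel wall. Libraries held 16483529 to 20818809 counts after 24 h (median 19695633) and 19936925 to 33916114 counts after 48 h (median 25922414). The p-values below measure the spread between cultures within mice or mouse numbers.

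The smooth muscle label was checked against marker genes. Acta2, the smooth muscle actin, was at 1149 to 4949 FPM (counts scaled to a common normalised library size) in control cultures after 24 h, and the summed level of 10 smooth muscle markers was 1246 to 24770 FPM over the 42 libraries. Myh11, the smooth muscle myosin heavy chain, was at 2.68 to 90.9 FPM in control cultures. Markers of other cells were also present. The summed level of 6 fibroblast markers was 1284 to 23400 FPM after 24 h, that of the 6 of 7 endothelial markers with a count (Cdh5 is listed at 0) 1.84 to 2490 FPM, that of 6 macrophage markers 18.4 to 120.4 FPM and that of 7 adipocyte markers 2.72 to 2585 FPM. Ptprc, the pan-leukocyte gene, did not exceed 0.0541 FPM after 24 h, and Ucp1, the brown fat gene, did not exceed 0.452 FPM in any library. The summed level of the 7 of 8 cardiac and skeletal muscle markers with a count (Acta1 is listed at 0) was 3.22 to 196.0 FPM after 24 h, with 3.83 to 57.7 FPM in control, and 2.89 to 36.7 FPM after 48 h. After 48 h the sums were 1370 to 11070 FPM for smooth muscle, 1043 to 9722 for fibroblast, 8.41 to 2610 for endothelial and 4.17 to 312.8 for adipocyte markers. Macrophage markers summed to 41.3 to 836.5 FPM, with 41.8 to 635.8 in control and at most 836.5 with EGF+AngII, but 43.6 to 80.7 with U46619, and Ptprc did not exceed 5.46 FPM. In such bulk cultures, fewer cells of a type and less RNA per cell cannot be told apart.

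A pair of libraries stood apart and bear on what follows. The EGF+AngII+U46619 library of mouse 3 (24 h) devoted 2.32% of its counts to the 86 genes, whereas the other 41 libraries at this time devoted 0.912% to 1.502%. Ribosomal protein genes took 16.5% of its counts against 3.99% to 9.53% in those 41 libraries, and it had a count for 15716 genes against 16634 to 19254. Relative to the other 5 libraries of its group, genes with short exons were higher and genes with long exons lower in it. The median log2 difference fell from 0.76 in the shortest sixth of genes (median exon length 881.5 bases) to −1.02 in the longest (median 10024 bases), and it was 1.63 for the oxidative phosphorylation genes, whose median exon length was 1675 bases. After 48 h, the control library of EGF/AngII culture set 4 deviated from its group mean unlike the other 3 libraries of its set (correlation −0.32 to −0.31, against 0.889 to 0.935 among those 3). The members' counts of changed genes and their medians are also given without these libraries.

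**Figure D1:**
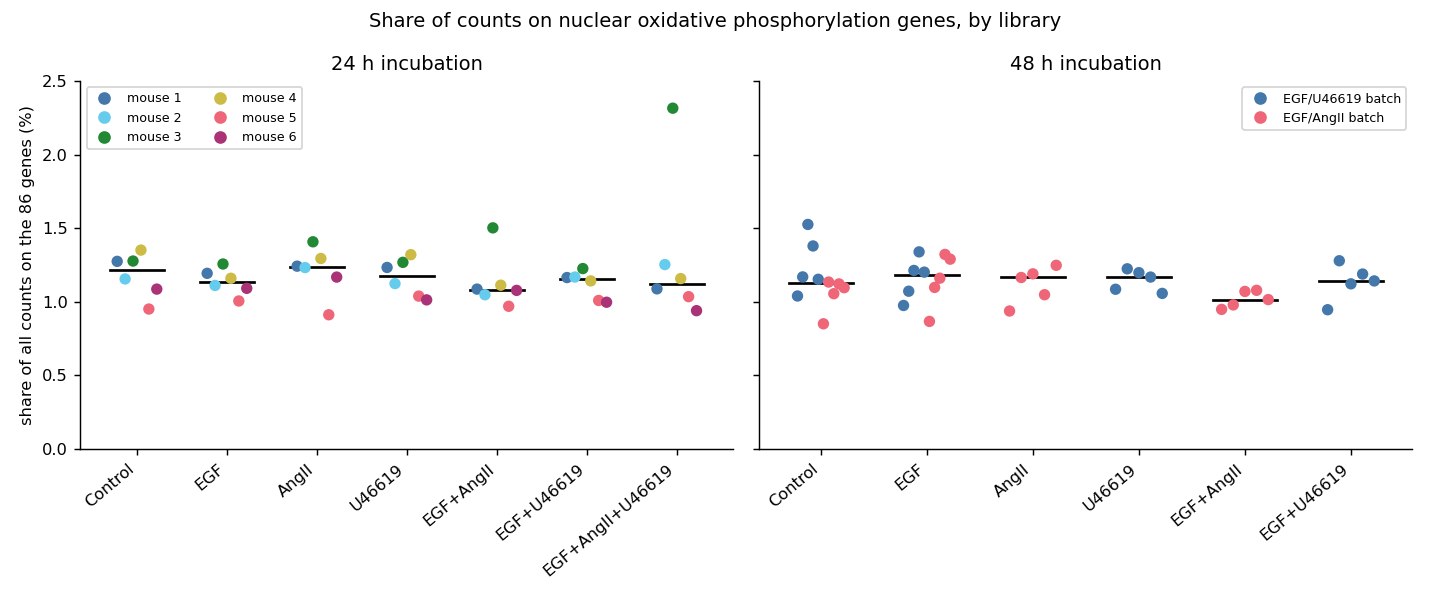
Share of all counts (percent) that fell on the 86 oxidative phosphorylation genes in each library, by group, with 24 h libraries coloured by mouse, 48 h libraries by batch, and group medians as bars. The EGF+AngII+U46619 library of mouse 3 lies at 2.32%, and all other 24 h libraries lie between 0.912% and 1.502%.

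The promoters of the members that lead the results are shown first. Of the 86 genes, 67 had a promoter window in RefSeq's promoter table for GRCm38.p6 (72 windows in all), and 250 bases upstream of the RefSeq start were read 5′ to 3′ on the strand of the gene. That start can differ from the start of the annotated gene. The Cox7a2l window and the Atp5j window shown lie inside the spans of these genes, and some other windows reach into theirs. Each window was searched on both strands for NRF1 (GCGCANGCG), ETS/GABP (CCGGAAG), YY1 (AAGATGGCG) and ERR (TCAAGGTCA), motifs of factors known for nuclear genes of the respiratory chain. Capitals mark matches, and neighbouring NRF1 matches on opposite strands overlap and read as 1 longer run. Cox7a2l, Cox6b2 and Ndufa6 are shown because they fell, Ndufaf4 and Atp5b because they rose, and Cox6a1, Sdha and Atp5j as members with several matches.
Cox7a2l, chr17:83514334-83514583 (minus strand): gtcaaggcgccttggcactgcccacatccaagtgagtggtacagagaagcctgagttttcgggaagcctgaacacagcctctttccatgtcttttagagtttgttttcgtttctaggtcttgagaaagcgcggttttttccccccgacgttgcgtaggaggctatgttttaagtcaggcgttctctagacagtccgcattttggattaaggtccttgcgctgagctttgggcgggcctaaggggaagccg
Cox6b2, chr7:4753095-4753344 (minus strand): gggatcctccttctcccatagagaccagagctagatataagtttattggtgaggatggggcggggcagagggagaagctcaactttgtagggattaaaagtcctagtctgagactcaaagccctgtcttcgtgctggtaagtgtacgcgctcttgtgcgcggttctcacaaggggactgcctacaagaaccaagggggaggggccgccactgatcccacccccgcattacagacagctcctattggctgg
Ndufa6, chr15:82354292-82354541 (minus strand): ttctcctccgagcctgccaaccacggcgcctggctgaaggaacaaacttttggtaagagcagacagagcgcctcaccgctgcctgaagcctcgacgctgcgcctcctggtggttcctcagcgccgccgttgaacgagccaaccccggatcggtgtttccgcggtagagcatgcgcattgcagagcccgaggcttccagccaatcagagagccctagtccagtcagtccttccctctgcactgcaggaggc
Ndufaf4, chr4:24897833-24898082 (plus strand): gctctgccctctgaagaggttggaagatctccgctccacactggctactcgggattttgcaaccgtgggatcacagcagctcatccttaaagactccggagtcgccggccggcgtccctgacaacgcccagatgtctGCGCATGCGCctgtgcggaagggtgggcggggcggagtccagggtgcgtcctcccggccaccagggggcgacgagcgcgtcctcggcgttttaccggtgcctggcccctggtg
Atp5b, chr10:128083057-128083306 (plus strand): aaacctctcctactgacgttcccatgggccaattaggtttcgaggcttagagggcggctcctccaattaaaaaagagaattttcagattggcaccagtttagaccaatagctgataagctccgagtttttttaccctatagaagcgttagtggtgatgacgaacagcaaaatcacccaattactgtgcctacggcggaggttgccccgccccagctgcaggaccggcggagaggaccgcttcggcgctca
Cox6a1, chr5:115348959-115349208 (minus strand): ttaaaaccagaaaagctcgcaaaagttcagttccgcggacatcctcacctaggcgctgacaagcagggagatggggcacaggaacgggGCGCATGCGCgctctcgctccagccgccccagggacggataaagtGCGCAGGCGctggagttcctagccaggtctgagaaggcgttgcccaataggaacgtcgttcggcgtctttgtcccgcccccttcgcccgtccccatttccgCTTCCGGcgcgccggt
Sdha, chr13:74350241-74350490 (minus strand): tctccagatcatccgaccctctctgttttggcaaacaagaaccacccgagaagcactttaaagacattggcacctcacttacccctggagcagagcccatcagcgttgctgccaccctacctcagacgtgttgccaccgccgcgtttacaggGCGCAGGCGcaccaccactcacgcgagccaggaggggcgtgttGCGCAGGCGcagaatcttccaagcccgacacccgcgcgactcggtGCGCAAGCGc
Atp5j, chr16:84834977-84835226 (minus strand): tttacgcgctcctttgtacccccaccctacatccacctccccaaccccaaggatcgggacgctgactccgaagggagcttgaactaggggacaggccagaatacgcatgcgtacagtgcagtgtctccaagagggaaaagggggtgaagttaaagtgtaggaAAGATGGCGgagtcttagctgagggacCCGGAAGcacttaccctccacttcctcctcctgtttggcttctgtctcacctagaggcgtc

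In these windows no match lies in Cox7a2l, Cox6b2, Ndufa6 or Atp5b. Ndufaf4 holds an NRF1 run, Cox6a1 an NRF1 run, a further NRF1 match and an ETS/GABP match, Sdha 3 NRF1 matches, and the Atp5j window shown a YY1 and an ETS/GABP match. A further Atp5j window, chr16:84835626-84835875, held no match. Over the 67 genes, 13 (19.4%) held an NRF1 match, against 11.6% of the tested genes with a window and 5.86% of all genes with a window. ETS/GABP was matched in 12 (17.9%), against 14.8% and 7.83%. YY1 and ERR were each matched in 1 gene (1.49%), against 1.28% and 0.711% for YY1 and 0.350% and 0.422% for ERR. At least 1 motif was found in 24 of the 67 genes, and the median GC content of their windows was 57.2% against 52.4% over all windows.

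Levels between genes are compared per kilobase of exon, with all annotated exons of a gene merged. In control cultures after 24 h the median level was 94.6 FPM per kb over complex V, 93.0 over complex III, 56.8 and 56.1 over the core and accessory subunits of complex I, 46.8 over complex II and 25.3 over complex IV. The complex I assembly factors, which help to build the complex and are not part of it, had the lowest median at 6.35 FPM per kb. After 48 h the medians were 113.8 for complex III, 81.3 for complex V, 60.2 and 54.3 for accessory and core subunits of complex I, 54.8 for complex II, 53.5 for complex IV and 8.08 for the assembly factors. The complex IV medians cover 17 genes, from 0.0 to 549 FPM per kb after 24 h and from 0.0 to 570 after 48 h. These genes include tissue isoforms and Cox5b.ps at low levels and lack Cox4i1, Cox5a, Cox7a2 and Cox7b, which are listed at 0. The complex IV medians therefore do not give the level of the ubiquitous subunits. Cox6a1 at 549 ± 159.4 (SD, n = 6) and Cox8a at 537 ± 167.6 (SD, n = 6) FPM per kb, both subunits of complex IV, did not differ beyond their spread. Atp5b, the catalytic beta subunit of ATP synthase, followed with 343 ± 56.3 (SD, n = 6), and Cox7a2l, a factor that joins complexes III and IV into supercomplexes and is known in a shortened form in C57BL/6 mice, with 289.5 ± 123.3 (SD, n = 6).

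The isoform pairs were far apart in these cultures. Among complex IV genes, the ubiquitous Cox6a1 was at 257 to 512 FPM (median 376) in control cultures after 24 h and its heart and muscle isoform Cox6a2 at 0.893 to 9.82 FPM (median 2.596). Cox6b1 was at 134.6 to 214 FPM (median 179.4), and Cox6b2, the isoform known from testis, at 1.31 to 26.6 FPM (median 5.16). Cox8a was at 236 to 505 FPM (median 318), whereas its muscle isoform Cox8b did not exceed 0.659 FPM in any library. Cox7a1, the heart and muscle isoform of that subunit, was at 0.2101 to 1.87 FPM (median 1.08). Cox4i2, the isoform known from lung and from low oxygen, was at 0 to 4.95 FPM (median 1.04), and its counterpart Cox4i1 is listed at 0 in all libraries, so that no comparison within this pair is made.

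Ndufa4, now counted as a complex IV subunit, was at 107.6 to 207 FPM (median 152.4) and its paralog Ndufa4l2, known for its induction in low oxygen, at 7.404 to 69.8 FPM (median 21.3). Ndufa4l2 varied between mice, with 15.5, 14.2, 7.404, 32.1, 69.8 and 27.01 FPM in the control cultures of mice 1 to 6. The 3 genes of the c subunit, whose ring turns in the membrane part of ATP synthase, encode the same mature protein. Of these Atp5g2 was at 189.3 ± 86 (SD, n = 6) FPM per kb, Atp5g3 at 117.8 ± 30.6 (SD, n = 6) and Atp5g1 at 20.03 ± 4.897 (SD, n = 6). Atp5g1 lay below the other 2 by more than their spread, which Atp5g2 and Atp5g3 did not between them. After 48 h the values were 130.1 ± 20.8 (SD, n = 10), 111.4 ± 22.3 (SD, n = 10) and 21.7 ± 3.92 (SD, n = 10), in the same order. The merged exons of Atp5g1 span 4912 bases, against 1675 for Atp5g2 and 2181 for Atp5g3, so the gap per kb exceeds that in FPM. In FPM the 24 h control means were 97.8 for Atp5g1, 314 for Atp5g2 and 256 for Atp5g3. These means come from the fit without the EGF+AngII+U46619 library of mouse 3.

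Changes were tested over 14528 genes with edgeR and DESeq2. A gene is called a DEG where its FDR (Benjamini-Hochberg adjusted p) lay under 0.05 with both tools and its mean reached 5 FPM in either group. Of the 86 genes 83 were tested. Cox7b2, Cox8b and Cox8c had 17, 74 and 1 counts over all libraries and were not tested. In the 13 comparisons 25 members were DEG at least once and 58 never. The comparisons with control share the control cultures of their time point, so that their values are given side by side and not as independent results.

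No member was a DEG with EGF or AngII alone. After 24 h EGF, 0 of 83 members and 0.0275% of all genes were DEG, and an unadjusted p under 0.05 was reached by 2 members with edgeR and by 2 with DESeq2. The median log2-fold change of the members was −0.11, against −0.03 over all genes tested, with 65 members below and 18 above 0. Within mice 1 to 6 the members' medians were −0.35, −0.14, −0.12, −0.36, 0.14 and 0.06, on both sides of 0. After 24 h AngII the count was 0 (0.0% of all genes, 0 members at an unadjusted p under 0.05 with either tool), with a median of 0.02. After 48 h EGF it was again 0 (0.0%, 0 with either tool, median 0.03), and after 48 h AngII also 0 (0.0%, 1 with either tool, median 0.0042, and 0.15 within the EGF/AngII batch with the culture set as the block). Without the library of mouse 3 the 24 h counts were again 0 and the medians −0.08 for EGF and 0.02 for AngII, and without the control library that stood apart the 48 h counts were 0 and the medians 0.0057 and −0.02.

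EGF+AngII lowered 1 member after 24 h, Cox7a2l, beside 3.13% of all genes. 8 members reached an unadjusted p under 0.05 with edgeR and 7 with DESeq2, and the members' median was −0.15 against −0.03 over all genes. After 48 h EGF+AngII no member was DEG (0 of 83, 0.0% of all genes, with 2 members at an unadjusted p under 0.05 with edgeR and 4 with DESeq2). Its median was −0.16, with 72 of 83 members below 0, against −0.001 over all genes. Without the control library that stood apart the median was −0.18, with the culture set as the block −0.12, and within the EGF/AngII batch with the set as the block −0.02. The medians within the 5 sets lay at 0.15, −0.28, 0.26, −0.10 and −0.16, on both sides of 0, the 0.26 being that of the set whose control stood apart. The sets at 0.15, −0.28 and −0.10 carry the same mouse number in the labels. Without the EGF+AngII+U46619 library of mouse 3, which enters the same fit, 5 members were DEG after 24 h EGF+AngII, all lower (Cox7a2l, Ndufa11, Ndufa6, Ndufa7 and Ndufb10), beside 10.3% of all genes, with a median of −0.10.

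U46619 for 24 h changed few of these genes, in both directions. Cox6b2, Cox7a2l and Ndufa6 fell, and Ndufaf4, Atp5b, Ndufs1 and Uqcrb rose, which makes 7 of 83 members (8.43%), beside 26.8% of all genes (12.9% higher and 13.9% lower). An unadjusted p under 0.05 was reached by 13 members with edgeR and by 12 with DESeq2. The members' log2-fold changes had a median of 0.03 (all genes −0.06), 43 lay above and 40 below 0, and their median size was 0.16 against 0.38 over all genes. With total counts in place of TMM scaling the split was 2 higher and 3 lower. Without mouse 2 the count was 2 (Ndufaf4 and Cox7a2l) and without mouse 3 it was 18. Without only the EGF+AngII+U46619 library of mouse 3 it was 17, 7 higher and 10 lower, beside 31.8% of all genes and with a median of 0.05, and these included all 7. In the same cultures 5 of 10 smooth muscle markers rose (Acta2 with a log2-fold change of 2.05) and 0 fell, and their summed level was 6197 to 24770 FPM against 2157 to 8166 in control. Of 6 fibroblast markers 4 fell (Dcn by 1.40), with sums of 1341 to 23400 against 1477 to 22250 FPM. Of 4 tested macrophage markers 1 rose (Csf1r) and 2 fell, of 4 tested adipocyte markers 1 fell (Adipoq), and 0 of 6 endothelial and 0 of 3 tested cardiac and skeletal muscle markers were DEG. The part of these markers in the members' changes was not tested.

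By complex, U46619 after 24 h raised 1 of 7 core subunits, lowered 1 of 28 accessory subunits and raised 1 of 7 assembly factors of complex I. In complex II 0 of 3 genes were DEG, in complex III 1 of 8 rose, in complex IV 2 of 14 fell, and in complex V 1 of 16 rose. The median log2-fold change was −0.13 for the core subunits and 0.18 for complex III, the lowest and the highest of the 7 groups.

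EGF+U46619 for 24 h gave 9 DEG among 83 members (10.8%), 4 higher and 5 lower, beside 32.1% of all genes (16.3% higher and 15.8% lower). The members' median was −0.10 (all genes −0.05), with 31 above and 52 below 0 and a median size of 0.20 against 0.42, and 17 members with edgeR and 15 with DESeq2 reached an unadjusted p under 0.05. All 5 that fell were accessory subunits of complex I (Ndufv3, Ndufa6 and Ndufa7) or complex IV genes (Cox6b2 and Cox7a2l). These groups hold 28 and 14 of the 83 tested members. Without mouse 1 the count was 5, without mouse 2 it was 4 and without mouse 3 it was 22. Without only the EGF+AngII+U46619 library of mouse 3 it was 26, 6 higher and 20 lower, beside 37.0% of all genes and with a median of −0.08. Those that fell then came from every complex, with Ndufs3 and Ndufs7 of the complex I core, the assembly factor Ndufaf8, Sdhc, Uqcrh and Atp5e among them. Smooth muscle markers gave 4 higher DEG and 1 lower, and 5 of 6 fibroblast markers and 3 of 4 adipocyte markers fell. Of 4 tested macrophage markers 1 rose (Csf1r) and 2 fell (Lyz2 and Cd14). No endothelial marker (0 of 6) and 0 of 3 tested cardiac and skeletal muscle markers were DEG. The part of all these markers in the members' changes was not tested.

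EGF+U46619 was also compared with U46619 alone. After 24 h 0 of 83 members and 0.0% of all genes were DEG, and 0 members reached an unadjusted p under 0.05 with edgeR or DESeq2. The median difference was −0.10, with 77 of 83 members lower with EGF+U46619, against 0.01 over all genes. Within mice 1 to 6 the members' medians were −0.21, 0.07, −0.15, −0.28, −0.10 and 0.05, on both sides of 0. After 48 h the count was likewise 0 (0.0%, 0 members at an unadjusted p under 0.05 with either tool), with a median of −0.03.

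EGF+AngII+U46619 for 24 h gave 21 DEG among 83 members (25.3%), 19 higher and 2 lower, beside 33.4% of all genes (17.7% higher and 15.7% lower). 36 members with edgeR and 38 with DESeq2 reached an unadjusted p under 0.05. These counts rest on the library of mouse 3. The median difference of the members within a mouse was 1.48 in mouse 3 and −0.53 to 0.21 in the other 5 mice. Without that library the split was 8 higher and 15 lower, beside 36.7% of all genes, and 9 of the 21 were among these 23, fewer than the 26 of EGF+U46619 in the same fit. The median over all members was 0.26 with it (all genes −0.04) and −0.02 without it. Without mouse 2 the count was 11. With total counts in place of TMM scaling the split was 8 higher and 2 lower, the median of all genes moved from −0.04 to −0.18 and that of the members from 0.26 to 0.07. In these cultures 5 smooth muscle markers rose (Acta2 by 1.88 and Actg2 by 2.46 on the log2 scale) and 1 fell (Synpo2), with sums of 5258 to 24430 FPM. Of 6 fibroblast markers 5 fell, of 4 tested macrophage markers 1 rose and 1 fell, of 4 tested adipocyte markers 2 fell, and 0 of 6 endothelial and 0 of 3 tested cardiac and skeletal muscle markers were DEG. Their part in the members' changes was not tested.

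**Figure D2:**
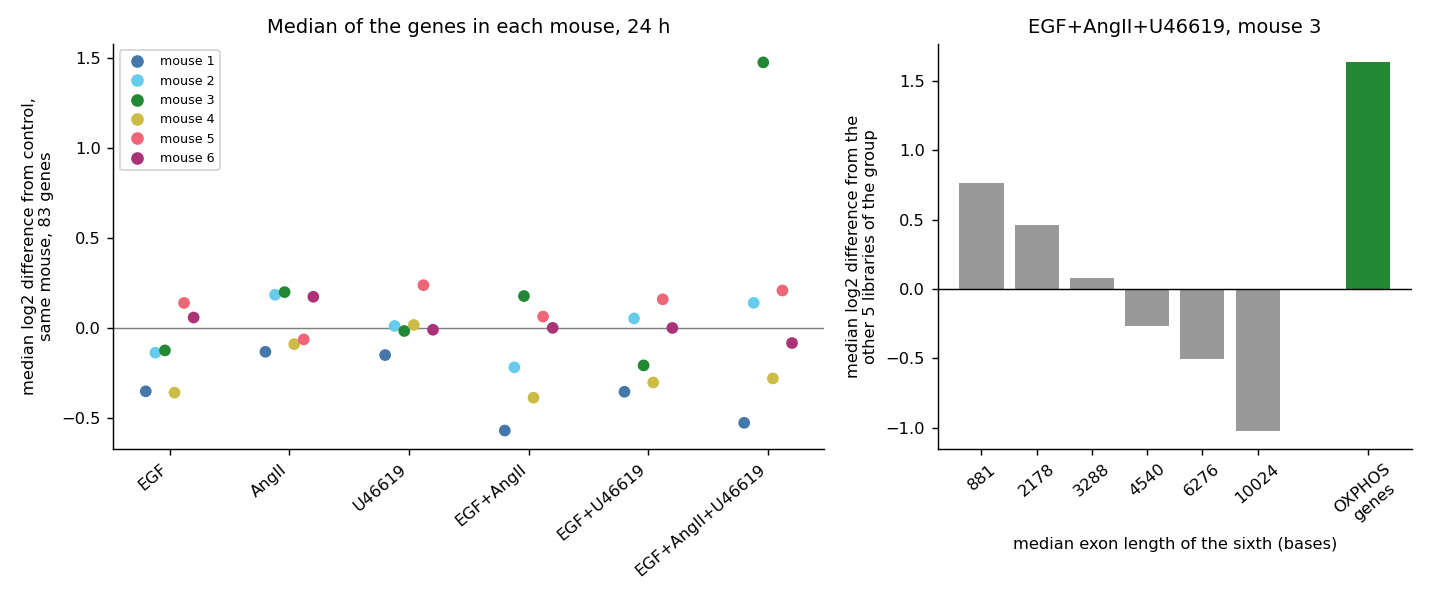
Left, the median log2 difference from control of the 83 tested members within each mouse and 24 h incubation. Right, the log2 difference between the EGF+AngII+U46619 library of mouse 3 and the mean log2 level of its group's other 5 libraries, for genes in sixths of exon length and for the members. Mouse 3 lies at 1.48 for EGF+AngII+U46619, and the difference goes from 0.76 for the shortest genes to −1.02 for the longest.

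The 8 members that rose with EGF+AngII+U46619 without that library were Ndufaf4 (log2-fold change 1.09), Atp5g1 (0.57), Atp5b (0.53), Ndufs1 (0.47), Atp5md (0.43), Uqcrb, Atp5a1 and Ndufab1. Among the 15 that fell were Cox6b2 (−2.92), Cox7a2l (−1.26), Ndufv3 (−0.73) and Ndufa6 (−0.71). With all libraries, Atp5g1 was higher by 1.01 ± 0.23 (SE, edgeR FDR 7.69e-04, DESeq2 FDR 2.33e-04) and Atp5md, a small subunit of the membrane part of ATP synthase, with a log2-fold change of 0.74 ± 0.18 (SE, edgeR FDR 0.00168, DESeq2 FDR 0.00103). In mouse 3 Atp5md was at 496.3 FPM with EGF+AngII+U46619 against 118.1 in its control, and the other 5 mice lay between 138.1 and 169.2 FPM with the incubation. Atp5g1 was at 638.5 FPM in mouse 3 and between 96.2 and 186.4 FPM in the other 5 mice.

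**Figure D3:**
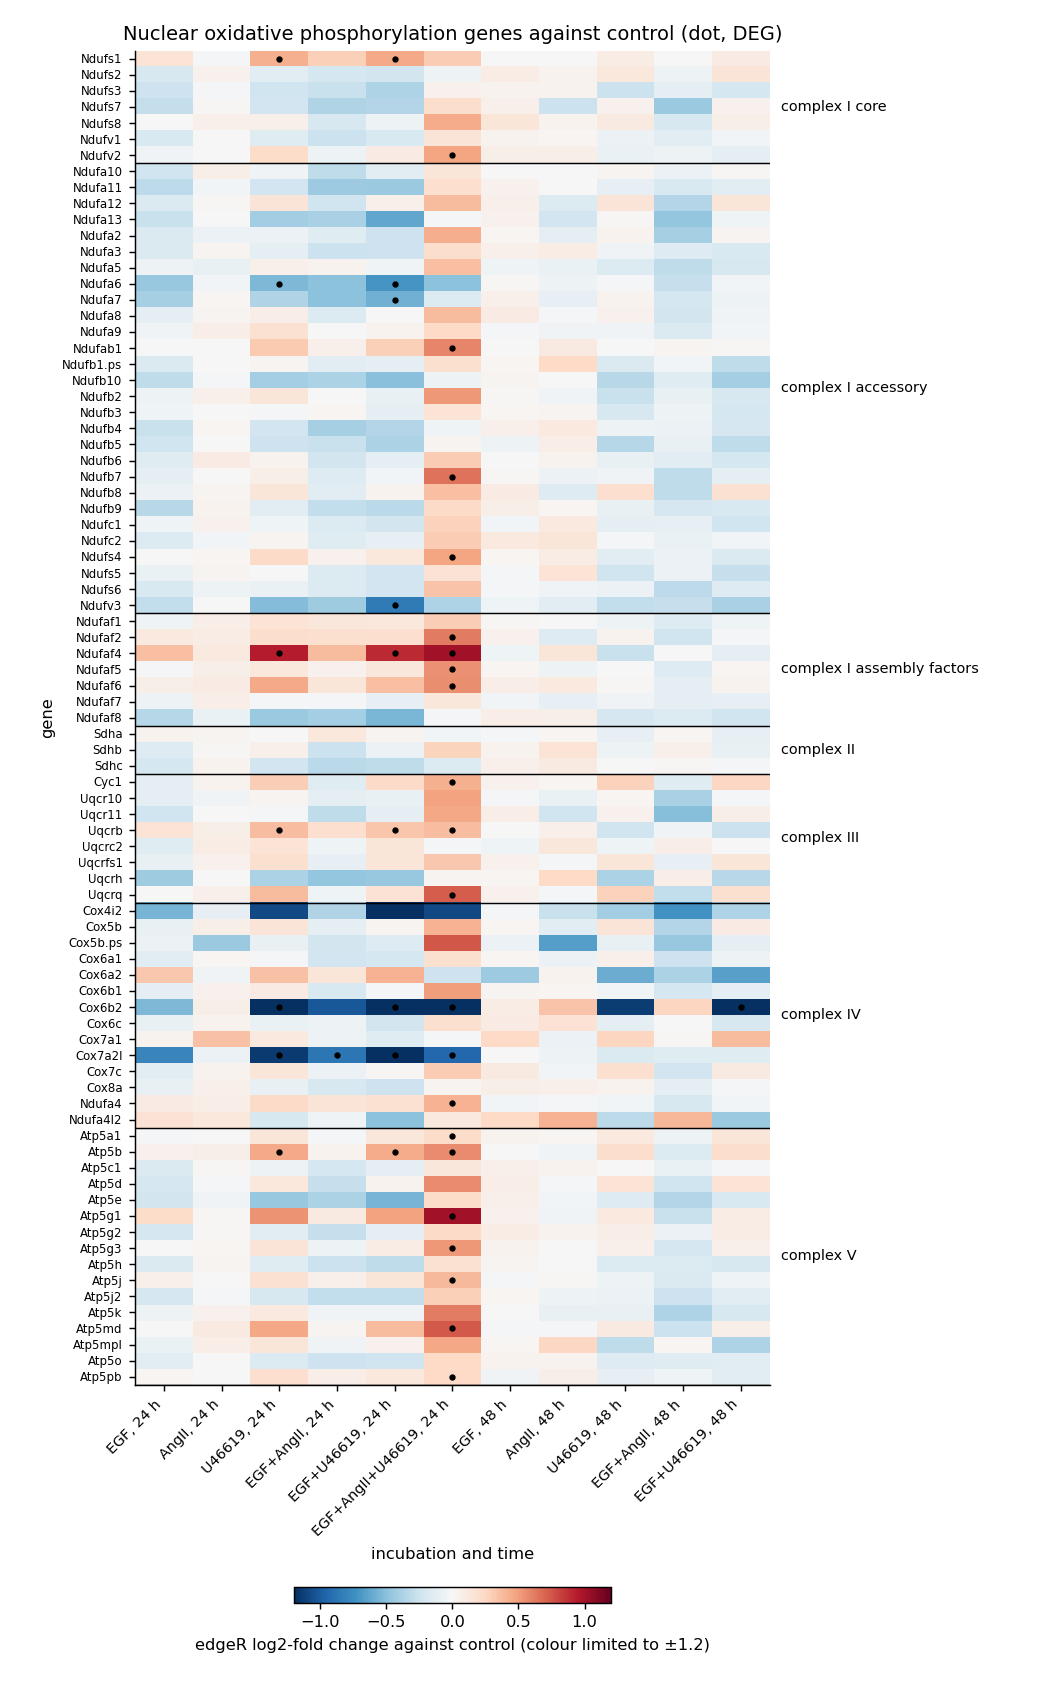
log2-fold change against control (edgeR, colour limited to ±1.2) of the 83 tested members, ordered by complex, in the 11 comparisons with control, with dots for DEG. Dots are scattered over the complexes after 24 h U46619 (7) and EGF+U46619 (9), more numerous with EGF+AngII+U46619 (21), and nearly absent after 48 h (1 with EGF+U46619).

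After 48 h U46619 no member was DEG (0 of 83, beside 4.03% of all genes, 2.48% higher and 1.55% lower), and 3 members with edgeR and 4 with DESeq2 reached an unadjusted p under 0.05. This fit covered both batches without a batch term. The median was −0.05 against −0.02 over all genes, with 53 members below 0. EGF+U46619 lowered 1 member, Cox6b2, beside 6.85% of all genes, and 5 members reached an unadjusted p under 0.05 with either tool. Without the control library that stood apart the counts were 0 (3.79% of all genes) and 1 (6.35%), with medians of −0.06 and −0.10. Within the EGF/U46619 batch, with the culture set as the block, 11 members were DEG with U46619, all lower, beside 21.0% of all genes, and 19 with EGF+U46619, all lower, beside 25.6%. The members' medians in that fit were −0.17 and −0.22. With the culture set as the block over both batches the counts were 2 (10.6% of all genes) and 3 (14.9%), all lower. In the fit over both batches, 1 of 6 fibroblast markers (Pi16) was DEG after 48 h. No smooth muscle, endothelial, macrophage, adipocyte or cardiac and skeletal muscle marker was, which does not show that they were unchanged. With U46619 and EGF+U46619 the median log2-fold changes were −1.65 and −1.55 for 6 endothelial markers. For 4 tested adipocyte markers they were −3.25 and −2.97. The medians of smooth muscle, macrophage and fibroblast markers also lay below 0. Those of 3 tested cardiac and skeletal muscle markers lay above 0, at 0.20 with either incubation. The summed macrophage markers reached 80.7 FPM with U46619 and 77.3 FPM with EGF+U46619, both run only in the EGF/U46619 batch. The 635.8 FPM reached in control is over both batches, so this contrast also spans batches. AngII and EGF+AngII, run only in the other batch, reached 541.3 and 836.5 FPM. The part of these markers in the members' values was not tested.

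**Figure D4:**
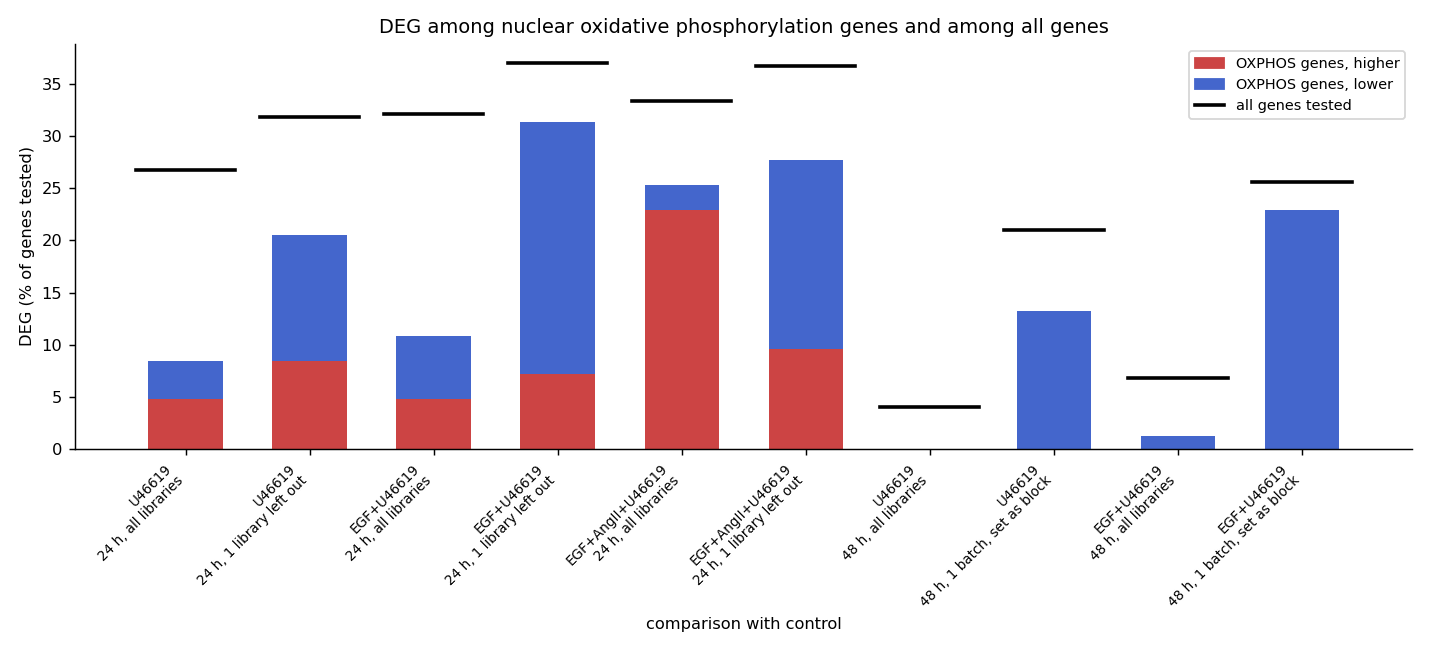
Percent of the 83 members that were DEG, higher and lower stacked, and the percent of all tested genes (line), for incubations with U46619, with all libraries, with 1 library left out, and after 48 h within 1 batch with the culture set as block. With all libraries after 24 h the U46619 bar reaches 8.43%, the EGF+U46619 bar 10.8% and the bar of the triple incubation 25.3%, against 26.8%, 32.1% and 33.4% of all genes.

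Among the genes that fell, Cox7a2l (chr17:83501918-83517330, minus strand, GRCm38) had 644, 598, 491, 391, 225 and 218 FPM in the control cultures of mice 1 to 6 after 24 h. With U46619 the same mice had 162.9, 155.7, 258, 195.5, 152.8 and 189.4 FPM. All 6 mice were lower, most in mice 1 and 2, whose controls were highest, and least in mice 5 and 6, whose controls were low, and the ranges of the groups overlapped. This gave a log2-fold change of −1.15 ± 0.25 (SE, edgeR FDR 7.41e-04, DESeq2 FDR 1.27e-04). With EGF+U46619 the values were 144.6, 170.8, 191.1, 160.2, 135.0 and 244 FPM, lower in 5 of 6 mice, with a log2-fold change of −1.22 ± 0.25 (SE, edgeR FDR 2.87e-04, DESeq2 FDR 3.33e-05). With EGF+AngII they were 167.8, 304, 317, 267, 137.0 and 213 FPM, lower in 6 of 6 mice, with a log2-fold change of −0.87 ± 0.25 (SE, edgeR FDR 0.048, DESeq2 FDR 0.0174), a call that was lost when mouse 1, 2, 3, 4 or 5 was left out. EGF alone gave −0.79 (edgeR FDR 0.111), below control in 5 of 6 mice, and AngII alone −0.07, neither of which passed. With EGF+AngII+U46619 it fell by 0.94, and mouse 3, at 629.6 FPM, was the only one of the 6 above its control. Without mouse 1 that value was −0.64 and no longer a DEG.

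Cox7a2l after 48 h was at 369.7, 426, 424, 367 and 297 FPM in the control cultures of the 5 EGF/U46619 sets and at 332, 447, 245, 277 and 231 FPM with U46619. The log2-fold changes of −0.18 with U46619 and −0.14 with EGF+U46619 did not pass. Within the EGF/U46619 batch with the culture set as the block they were −0.33 (edgeR FDR 0.0353, DESeq2 FDR 0.0228), a DEG, and −0.29 (edgeR FDR 0.0534, DESeq2 FDR 0.0413), not a DEG.

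Cox6b2 (chr7:4751792-4753094, minus strand) had low levels that varied between mice, with 1.797, 26.6, 1.31, 4.75, 5.57 and 10.8 FPM in the control cultures of mice 1 to 6 after 24 h. With U46619 these mice had 0.116, 2.81, 0.515, 0.8999, 1.099 and 5.93 FPM. All 6 were lower, mouse 2 stood highest in control, and the groups overlapped. Its log2-fold change was −2.30 ± 0.48 (SE, edgeR FDR 4.36e-04, DESeq2 FDR 9.90e-06), and without mouse 2 it was −2.07 and no longer a DEG. With EGF+U46619 Cox6b2 was at 0, 3.27, 0.9204, 0.503, 1.54 and 14.99 FPM, lower in 5 of 6 mice, with a log2-fold change of −1.66 ± 0.46 (SE, edgeR FDR 0.0044, DESeq2 FDR 6.59e-04), and that call was also lost without mouse 2 (−1.38).

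After 48 h Cox6b2 was the only member that passed in the fit of all 48 h libraries without the culture set as the block. The control cultures of the 5 EGF/U46619 sets had 13.4, 18.5, 9.65, 9.97 and 20.8 FPM, those with U46619 5.36, 7.41, 5.42, 5.52 and 13.4 FPM and those with EGF+U46619 4.82, 7.84, 2.899, 5.34 and 15.3 FPM. Each set was lower with either incubation than in its own control. EGF+U46619 gave −1.30 ± 0.36 (SE, edgeR FDR 0.0214, DESeq2 FDR 0.00389), a call that was lost when set 1, 2, 3 or 4 was left out. U46619 alone gave −1.14 ± 0.36 (SE, edgeR FDR 0.0583, DESeq2 FDR 0.0194), past the threshold with DESeq2 only. U46619 made it a DEG with the culture set as the block (−0.87 (edgeR FDR 0.00235, DESeq2 FDR 1.49e-04)), within the batch with that block (−0.99 (edgeR FDR 2.12e-04, DESeq2 FDR 1.94e-08)) and without set 5 of the EGF/AngII batch (−1.201). With EGF alone the same sets had 11.9, 13.5, 7.37, 11.2 and 21.6 FPM.

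Ndufa6 (chr15:82350140-82354322, minus strand) encodes an accessory subunit of the matrix arm of complex I. It was at 157.5, 119.7, 101.5, 87.2, 60.8 and 61.9 FPM in the controls of mice 1 to 6 after 24 h and at 63.8, 56.3, 76.2, 72.2, 61.7 and 61.3 FPM with U46619. The fall was seen in mice 1 to 4, while mice 5 and 6, with the lowest controls, hardly moved and mouse 5 was slightly above its control. The log2-fold change was −0.54 ± 0.18 (SE, edgeR FDR 0.0219, DESeq2 FDR 0.0259), and the call was lost without mouse 1 (−0.34) or mouse 2 (−0.43). With EGF+U46619, at 49.2, 65.7, 68.9, 55.9, 52.3 and 57.9 FPM, all 6 mice were lower, with a log2-fold change of −0.70 ± 0.18 (SE, edgeR FDR 0.00263, DESeq2 FDR 0.00189), a call lost without mouse 1 (−0.48). After 48 h it was −0.01 with U46619 and −0.03 with EGF+U46619. Within the EGF/U46619 batch with the culture set as the block it was −0.23 (edgeR FDR 0.17, DESeq2 FDR 0.187) and −0.24 (edgeR FDR 0.139, DESeq2 FDR 0.146), neither a DEG.

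Ndufv3 (chr17:31520115-31531331, plus strand), a small accessory subunit of the part of complex I that oxidises NADH, was at 197.7, 141.5, 127.1, 123.6, 72.8 and 70.2 FPM in the controls and at 62.8, 59.4, 59.00, 78.1, 54.4 and 67.95 FPM with EGF+U46619. All 6 mice were lower, again most in mice 1 to 4. The fitted log2-fold change was −0.85 ± 0.21 (SE, edgeR FDR 0.00193, DESeq2 FDR 0.00127). With U46619 alone it was −0.52 ± 0.21 (SE, edgeR FDR 0.0553, DESeq2 FDR 0.079), below control in 6 of 6 mice but not past the threshold. That call turns on the EGF+AngII+U46619 library of mouse 3, without which it was −0.50 (edgeR FDR 0.00527, DESeq2 FDR 0.00342), a DEG, as it also was without mouse 3 and with only the 2 groups compared. After 48 h Ndufv3 was a DEG in the fits with the culture set as the block, at −0.51 (edgeR FDR 0.0034, DESeq2 FDR 3.88e-04) with U46619 and −0.61 (edgeR FDR 7.00e-04, DESeq2 FDR 1.02e-05) with EGF+U46619 within the batch. Ndufa7 (chr17:33824572-33838317, plus strand), another accessory subunit, was lower with EGF+U46619 in 5 of 6 mice, with a log2-fold change of −0.58 ± 0.21 (SE, edgeR FDR 0.0292, DESeq2 FDR 0.0404). It is not named by the rule but was picked with its values in view.

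**Figure D5:**
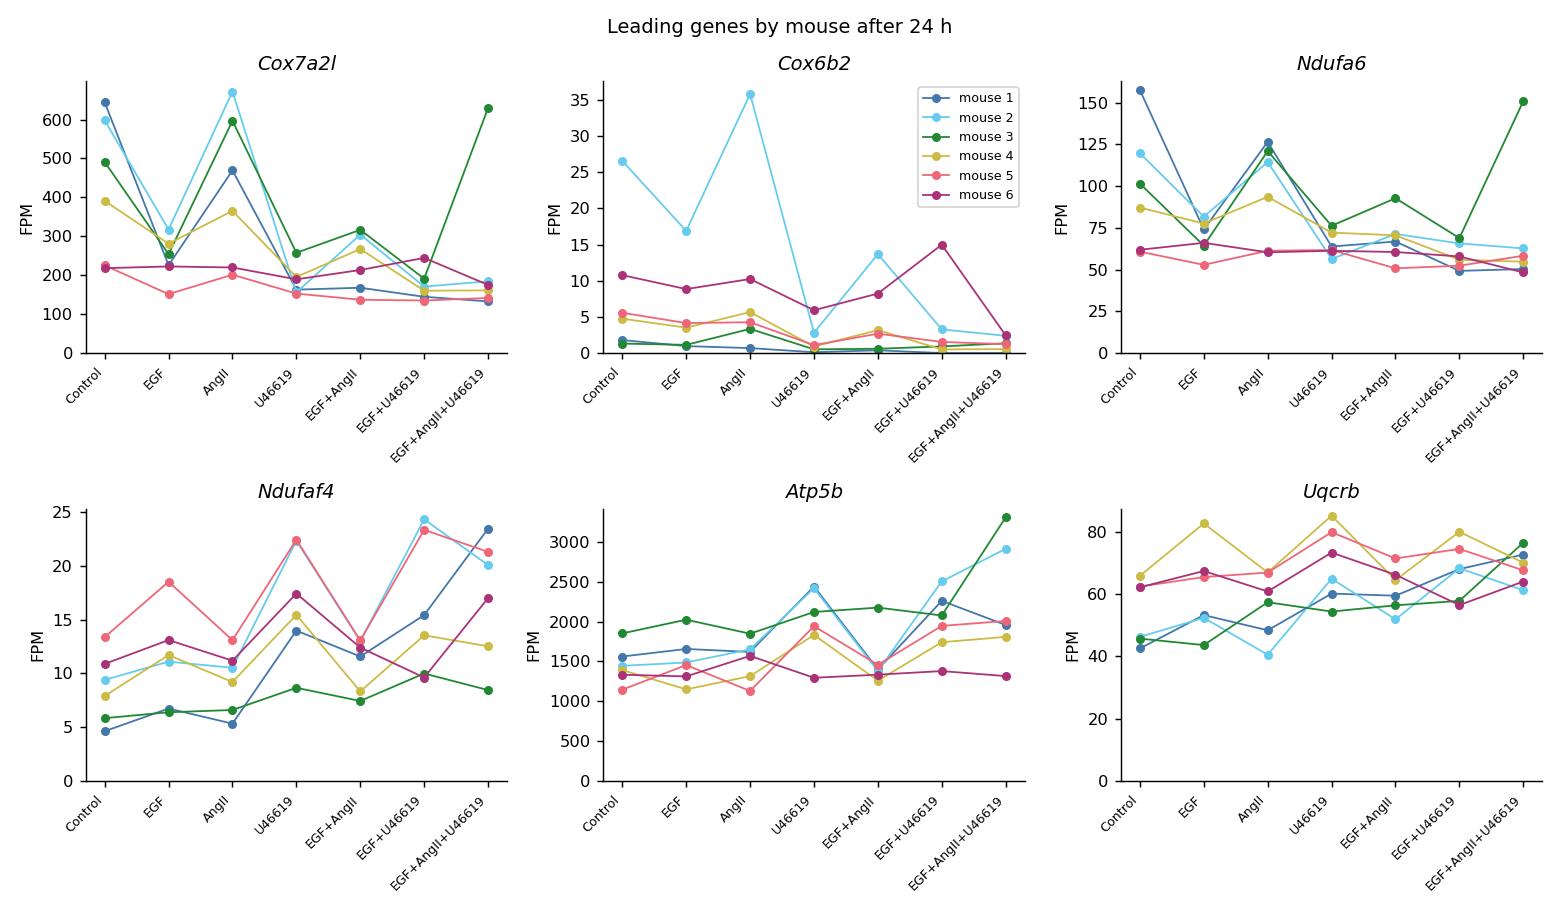
FPM of Cox7a2l, Cox6b2, Ndufa6, Ndufaf4, Atp5b and Uqcrb by incubation after 24 h, with a line for each of the 6 mice. With U46619 Cox7a2l and Cox6b2 are lower and Ndufaf4 and Uqcrb higher than control in 6 of 6 mice, while the ranges of control and U46619 overlap.

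Among the genes that rose, Ndufaf4 (chr4:24898083-24905001, plus strand), an assembly factor for the early steps of complex I, changed most. It was at 4.61, 9.39, 5.83, 7.89, 13.4 and 10.9 FPM in the controls of mice 1 to 6 after 24 h and at 13.98, 22.4, 8.65, 15.4, 22.4 and 17.4 FPM with U46619. All 6 mice were higher, and the group ranges overlapped because mouse 3 with U46619 stayed below the controls of mice 2, 5 and 6. With edgeR the log2-fold change was 0.94 ± 0.19 (SE, edgeR FDR 3.31e-04, DESeq2 FDR 2.68e-05). With EGF+U46619 it was at 15.4, 24.3, 9.99, 13.5, 23.4 and 9.61 FPM, higher in 5 of 6 mice, with a log2-fold change of 0.89 ± 0.19 (SE, edgeR FDR 3.86e-04, DESeq2 FDR 5.66e-05), and with EGF+AngII+U46619 it was higher by 1.01 ± 0.19 (SE, edgeR FDR 9.01e-05, DESeq2 FDR 2.24e-06).

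After 48 h Ndufaf4 was at 14.8, 13.9, 14.1, 16.97 and 12.6 FPM in the controls of the EGF/U46619 sets and at 13.9, 12.98, 12.7, 14.7 and 12.6 FPM with U46619, with a log2-fold change of −0.27 (edgeR FDR 0.274). Within mice the mean log2 difference was 0.93 after 24 h and within sets it was −0.11 after 48 h, a distance of 1.03. No conclusion is drawn from a test of this distance, since Ndufaf4 is among the members that changed after 24 h. The mice differ along with the incubation time, so that these cannot be told apart.

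Ndufs1 (chr1:63143596-63176833, minus strand) encodes the largest core subunit of complex I, which carries iron-sulfur clusters. It was at 40.9, 39.2, 34.1, 54.5, 71.2 and 66.9 FPM in the controls and at 62.1, 64.03, 46.8, 82.6, 73.5 and 77.6 FPM with U46619, higher in 6 of 6 mice. The log2-fold change was 0.43 ± 0.16 (SE, edgeR FDR 0.0386, DESeq2 FDR 0.0498), close to the threshold, and the call was lost without mouse 1, 2, 4 or 5 (0.37 to 0.52) and with total counts (0.36). With EGF+U46619 it was 0.45 ± 0.16 (SE, edgeR FDR 0.0262, DESeq2 FDR 0.033), higher in 5 of 6 mice. Its exons overlap those of Eef1b2 and Ino80dos on the opposite strand, and whether the counting used the strand is not given in the sources used here.

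Uqcrb (chr13:66900617-66905378, minus strand), a subunit of complex III beside its ubiquinone site, was at 42.6, 46.3, 45.7, 65.9, 62.5 and 62.3 FPM in the controls and at 60.2, 65.02, 54.5, 85.3, 79.99 and 73.4 FPM with U46619. All 6 mice were higher, and the ranges of the groups overlapped. The log2-fold change was 0.37 ± 0.11 (SE, edgeR FDR 0.00791, DESeq2 FDR 0.00963), and the call was lost without mouse 2 (0.34) and with total counts (0.30). With EGF+U46619 it was 0.33 ± 0.11 (SE, edgeR FDR 0.0121, DESeq2 FDR 0.0178), higher in 5 of 6 mice. After 48 h the EGF/U46619 sets had 85.98, 86.9, 130.1, 117.1 and 90.5 FPM in control and 78.2, 83.5, 96.4, 93.7 and 77.7 FPM with U46619, lower in each set. The mean log2 difference was 0.36 after 24 h and −0.23 after 48 h with U46619, and 0.33 and −0.26 with EGF+U46619. Within the EGF/U46619 batch with the culture set as the block Uqcrb was a DEG in the lower direction after 48 h, at −0.23 (edgeR FDR 0.0337, DESeq2 FDR 0.0217) with U46619 and −0.25 (edgeR FDR 0.0185, DESeq2 FDR 0.00871) with EGF+U46619. Its exons overlap those of Gm10767 on the opposite strand.

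Atp5b (chr10:128083273-128090391, plus strand) was at 1562, 1445, 1853, 1392, 1145 and 1333 FPM in the controls of mice 1 to 6 and at 2442, 2421, 2122, 1833, 1943 and 1295 FPM with U46619 after 24 h. It was higher in 5 of 6 mice and mouse 6 was slightly below its control. The log2-fold change was 0.46 ± 0.13 (SE, edgeR FDR 0.00856, DESeq2 FDR 0.00732). With EGF+U46619, at 2262, 2507, 2078, 1742, 1947 and 1379 FPM, all 6 mice were higher, with a log2-fold change of 0.44 ± 0.13 (SE, edgeR FDR 0.00867, DESeq2 FDR 0.00821), a call lost without mouse 2 (0.37) or mouse 5 (0.39). After 48 h it was 0.22 and 0.21, neither past the threshold. As the most abundant of the members in counts, it took a large part of the summed complex V level, which was 4739 FPM in control and 5361 FPM with U46619 after 24 h.

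Other members named by the rule gave values that did not pass after 24 h U46619 with all libraries. The complex II genes were at −0.01 (edgeR FDR 0.962) for Sdha, the flavoprotein that oxidises succinate, 0.06 (edgeR FDR 0.834) for the iron-sulfur subunit Sdhb and −0.23 (edgeR FDR 0.171) for the membrane anchor Sdhc. Sdha had 142.3, 156.8, 179.5, 206, 227 and 248 FPM in the controls and 180.6, 163.6, 182.9, 193.1, 204 and 217 FPM with U46619. The mice differed more among each other than the incubations did. Cyc1, cytochrome c1 of complex III, was at 0.29 (edgeR FDR 0.144). The c subunit genes were at 0.54 (edgeR FDR 0.0658) for Atp5g1, which was above control in 6 of 6 mice, −0.12 (edgeR FDR 0.643) for Atp5g2 and 0.15 (edgeR FDR 0.515) for Atp5g3. Without the EGF+AngII+U46619 library of mouse 3, Atp5g1 was at 0.55 (edgeR FDR 0.00301, DESeq2 FDR 0.00518) and Atp5md at 0.48 (edgeR FDR 0.00184, DESeq2 FDR 0.00344) with U46619, both DEG, as they were without mouse 3 and with only the 2 groups compared.

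The isoforms of complex IV also did not pass, apart from Cox6b2. Cox6b1, its counterpart, was at 0.10 (edgeR FDR 0.731), Cox6a1 at −0.01 (edgeR FDR 0.973) and Cox8a at −0.09 (edgeR FDR 0.671). Cox4i2 was at −1.08 (edgeR FDR 0.0804), with no group mean of 5 FPM. Cox6a2 and Cox7a1 were at 0.35 (edgeR FDR 0.505) and 0.12 (edgeR FDR 0.838). Ndufa4 was at 0.23 (edgeR FDR 0.241) and Ndufa4l2 at −0.19 (edgeR FDR 0.698).

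Genes that work beside the complexes were counted in the same comparisons, from lists chosen with earlier results of these data known. Of 7 genes of cytochrome c and carriers, 3 rose and 0 fell after 24 h U46619, among them Cycs, cytochrome c itself, by 1.09 ± 0.18 (SE, edgeR FDR 5.59e-05), and the outer membrane channels Vdac1 by 0.38 ± 0.11 (SE, edgeR FDR 0.00683) and Vdac2 by 0.38 ± 0.08 (SE, edgeR FDR 8.00e-04). Of 12 genes of the tricarboxylic acid cycle, 3 rose and 0 fell, namely Dld (0.55 ± 0.18 (SE, edgeR FDR 0.0177)), Dlst (0.42 ± 0.10 (SE, edgeR FDR 0.00252)) and Fh1 (0.40 ± 0.10 (SE, edgeR FDR 0.00313)). Of 74 genes of the mitochondrial ribosome, 10 rose and 0 fell, with a median of 0.14, among them Mrpl50, Mrpl16, Mrpl18 and Mrpl20 (log2-fold changes 0.57, 0.54, 0.53 and 0.53). These shares stand beside 12.9% of all genes that rose and 13.9% that fell. Without the EGF+AngII+U46619 library of mouse 3 the counts were 4 and 0, 4 and 0, and 19 and 0 for these 3 lists, beside 15.6% and 16.3% of all genes.

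Of 27 assembly factors outside the Nduf family, 4 rose and 3 fell. Tmem70, a factor for ATP synthase, rose by 1.02 ± 0.24 (SE, edgeR FDR 0.00144) and Cox18, an insertase for complex IV, by 0.71 ± 0.12 (SE, edgeR FDR 5.86e-05), while Uqcc3 of complex III (−0.85 ± 0.27 (SE, edgeR FDR 0.016)) and Sdhaf4 of complex II (−0.66 ± 0.20 (SE, edgeR FDR 0.0101)) fell. Of 12 tested regulators of mitochondrial biogenesis 3 rose and 0 fell. These were Pprc1 by 0.51 ± 0.11 (SE, edgeR FDR 9.02e-04), Gabpb1 by 0.50 ± 0.15 (SE, edgeR FDR 0.00884) and Tfam, the packaging and transcription factor of mitochondrial DNA, by 0.43 ± 0.15 (SE, edgeR FDR 0.0315). Nrf1 (0.21 ± 0.11 (SE, edgeR FDR 0.125)), Gabpa (0.19 ± 0.17 (SE, edgeR FDR 0.418)), Esrra (−0.10 ± 0.14 (SE, edgeR FDR 0.639)) and Ppargc1b (−0.03 ± 0.34 (SE, edgeR FDR 0.95)) did not pass, and Ppargc1a was not tested.

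With EGF+U46619 after 24 h the higher and lower counts were 5 and 0 for the regulators, 3 and 0 for the tricarboxylic acid cycle, 5 and 4 for the other assembly factors, 3 and 0 for cytochrome c and carriers and 10 and 0 for the mitochondrial ribosome, beside 16.3% and 15.8% of all genes. Without the EGF+AngII+U46619 library of mouse 3 they were 6 and 0, 5 and 0, 5 and 5, 4 and 0, and 15 and 4, beside 18.8% and 18.3%. With EGF+AngII+U46619 they were 5 and 0, 5 and 0, 6 and 1, 5 and 0, and 38 and 0, beside 17.7% and 15.7% of all genes. Without the library of mouse 3 they became 5 and 0, 5 and 0, 7 and 4, 4 and 0, and 18 and 2, beside 18.8% and 17.9%. After 48 h U46619 they were 0 and 0, 1 and 0, 0 and 1, 0 and 0, and 1 and 0, beside 2.48% and 1.55% of all genes, and after 48 h EGF+U46619 they were 2 and 0, 1 and 0, 1 and 1, 0 and 0, and 1 and 0, beside 3.84% and 3.01%.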

How the data were processed

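RNA from aVSMC was sequenced in 82 libraries. The authors aligned reads with HISAT2 (2.1.0, per the submitters' processing notes) to mm10 and counted them per gene with featureCounts, with multi-mapping reads included, and the counts were deposited by the authors as whole numbers without normalization. Whether counting used the strand is not given in the sources used here. All 7075 genes of chromosomes 9, X, Y and MT are listed at 0. The total count per library was 16483529 to 33916114, and counting error is small for members above a few FPM, so that the spread between cultures sets the precision.

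Each time point was fitted with all its groups, with mouse number and treatment as terms, in edgeR 4.0.16 (quasi-likelihood test) and DESeq2 1.42.0 (Wald test, size factors) under R 4.3.3 with limma 3.58.1. The 48 h fit held no term for the batch. Because some mouse numbers cover sets of both batches, cultures of 1 batch were compared in part with controls of the other. Scripts used Python 3.11.15, SciPy 1.17.1, NumPy 2.4.6, Matplotlib 3.10.9 and pandas 2.3.3, and the fits were tested on simulated data. FPM were computed from TMM-normalised library sizes. The filter of edgeR (filterByExpr) kept 14653 genes at 24 h, 15796 at 48 h and 14528 at both, and DEG were sought among the last. Standard errors were derived from edgeR's F statistic. Differences within mice and culture sets used log2(FPM + 0.5). Gene positions are from a GENCODE annotation of GRCm38, and promoters from RefSeq on GRCm38.p6.

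The labels give 5 mouse numbers for 10 culture sets at 48 h, whereas the methods state a separate mouse for each replicate, so the culture set as block was an alternative. Whether numbers pair samples was checked from the deviations from group means. At 24 h 126 of 126 pairs of libraries of the same mouse correlated by over 0.1 (0.376 to 0.963), and the cultures of a number are stated to come from 1 mouse. At 48 h 57 of 60 pairs of the same culture set did (−0.317 to 0.952), and 14 of 48 pairs with the same mouse number in different sets. No libraries agreed within sampling noise.

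The members and lists were chosen with earlier results of these data known. The genes named are the isoform sets of complex IV, Ndufa4 and the c subunit, Sdha, Sdhb, Sdhc and Cyc1. Added to these are, per complex group, up to 2 DEG in each direction for 24 h U46619 and EGF+U46619 that moved the same way in every mouse, and up to 3 per direction in other comparisons. Up to 4 DEG of each further list (regulators, tricarboxylic acid cycle, other assembly factors, cytochrome c and carriers, mitochondrial ribosome) were named. Alternatives were each tool alone, other scalings, no filter, no FPM minimum, no block, the culture set as block, 1 batch, only the groups compared, and leaving out each mouse or set. Leaving out 1 library was added after the data were seen.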

Additional observations from a re-analysis of the deposited data

Results flagged for a closer look

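Of 41 groups of 4 to 10 samples tested for a sample far from the others, 5 had one, and chance gives about 1 in 20. The share of counts on the members was 2.32% in the EGF+AngII+U46619 culture of mouse 3 and 1.502% in its EGF+AngII culture, each far above the other 5 of its group. The median log2 difference of the members from control was 1.48 in mouse 3 with EGF+AngII+U46619. With that incubation Ndufaf4 differed from control by 2.23 in mouse 1 and Atp5md by 2.07 in mouse 3, on the log2 scale.

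The 16 differences between 24 h and 48 h that follow concern the 7 and 9 members that were DEG after 24 h with U46619 and EGF+U46619. These members were chosen for their change at 24 h, which favours a difference, so the tests cannot decide whether the times differ. The tests also treat the 5 culture sets as separate, although sets 1 and 4 carry the same mouse number in the labels. Of these differences, tested over 6 mice and 5 culture sets with exact two-sided permutation tests, 3 had an adjusted p under 0.05. The 3 were Ndufaf4 with U46619 (1.03) and Uqcrb with U46619 (0.60) and with EGF+U46619 (0.58), each a log2 difference that was positive at 24 h and negative at 48 h on average. The mice differ along with the incubation time, and these cannot be told apart.

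Outside the members, 14 of 16 pseudogenes of these families had more than 3 counts over all libraries, led by Ndufa12.ps with 42919, Ndufb4c with 36576 and Ndufab1.ps with 16347 counts. Reads shared with the parent genes could not be separated.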

How the results depend on the processing

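The members' medians moved by less than 1 SD between mice or culture sets in 205 of 205 alternatives. That SD is wide where single cultures deviate (for EGF+AngII+U46619 it is set mostly by mouse 3), so this says little about stability. The median of EGF+AngII+U46619 ran from −0.08 to 0.43 when each mouse was left out, and within 1 batch with the culture set as replicate block the 48 h medians went from −0.16 to −0.02 for EGF+AngII, from 0.0042 to 0.15 for AngII and from −0.05 to −0.17 for U46619. Of 231 counts of DEG under alternatives, 193 stayed within 1.5 times the main count. Many of these counts belong to comparisons whose main count was 0, so this share says little about the comparisons with DEG, whose counts follow. Without the EGF+AngII+U46619 library of mouse 3, left out after the data were seen, the count became 17 for 24 h U46619, 26 for EGF+U46619 and 5 for EGF+AngII. With no replicate block, that is without the pairing by mouse, it was 2 for U46619, 4 for EGF+U46619, 6 for EGF+AngII+U46619 and 0 for EGF+AngII at 24 h, and 0 for EGF+U46619 at 48 h. With only the 2 groups compared it was 14 for U46619, 1 for EGF+AngII+U46619 and 0 for EGF+AngII at 24 h, and 0 for EGF+U46619 at 48 h. Total counts gave 10 for EGF+AngII+U46619 and 0 for EGF+AngII, DESeq2 size factors in edgeR 0 for EGF+AngII, no filter 13 for EGF+AngII+U46619, and DESeq2 alone 1 for 48 h U46619. The culture set as replicate block gave 2 for U46619 and 3 for EGF+U46619 at 48 h, and within 1 batch 11 and 19. Leaving out each mouse gave 2 to 18 for U46619, 4 to 22 for EGF+U46619, 11 to 28 for EGF+AngII+U46619 and 0 to 1 for EGF+AngII, and each culture set 0 to 1 for 48 h U46619 and 0 to 2 for EGF+U46619. The other 7 comparisons kept 0 throughout the left-out cultures. The cause of these changes was not tested. Of 813 values of named members under alternatives 756 kept their status as DEG or not, 48 lost a call, 9 gained one and 0 changed sign after a call. Many of the 813 belong to comparisons in which the member was not a DEG and had no call to lose. The 756 therefore say little about how stable the calls are. Members at a few FPM, such as Cox6b2, are limited by their spread between mice and by the FPM minimum.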
